A study of Mus musculus with 150 samples.

Results

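The genes described here are 10 detoxification genes of the mouse lung: Gstm1, Gstm2, Gsta3, Gsta4, Gsto1, Aldh1a1, Aldh1a7, Prdx6, Cbr2 and Nfe2l2. They were chosen by name, as genes of glutathione transfer, aldehyde and carbonyl removal, peroxide removal and their regulator. All 10 had a row among the 24341 rows of the bulk table and among the 31175 genes of each single-cell table. Airway club cells, which secrete Scgb1a1, are the lung cells best known for metabolising foreign compounds, and alveolar type 2 cells, which secrete surfactant and are marked by Sftpc, are their alveolar neighbours. Cytochrome P450 enzymes such as Cyp2f2 make reactive epoxides and aldehydes in club cells. Glutathione transferases couple such electrophiles to glutathione, aldehyde dehydrogenases and carbonyl reductases oxidise or reduce aldehydes and carbonyls, and peroxiredoxins reduce peroxides. Nfe2l2 encodes NRF2, the transcription factor that binds antioxidant response elements and switches on many of these enzymes, and Keap1 holds it back.

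The study measured RNA of mouse lung epithelial cells that were wild type or lacked p53, which Trp53 encodes. In bulk there were 3 libraries per genotype, numbered 1, 5 and 6 in the wild type and 7, 8 and 10 in the knockout, made from cells sorted as GFP-positive and EpCAM-positive and negative for CD31, CD34, CD45 and 7AAD. In the bulk mice of both groups, Scgb1a1-CreERTM, a tamoxifen-inducible Cre driven by the club cell gene, switched the Rosa26-mT/mG reporter from red to green, and the mice were p53+/+ or p53flox/flox, aged 8 to 12 weeks. The bulk titles give day 30 and the protocol gives 70 days after tamoxifen, and the genotype label of the knockout samples reads p53-/-. Single cells were captured on Fluidigm C1 chips, 1 chip for each genotype, from mice given tamoxifen at 250 mg/kg. The labels leave unclear whether the deletion in these cells was full or induced, and whether they were fresh or cultured. Separate animals are not named for the bulk libraries, so a p-value here covers the spread of the libraries alone, and that spread may be technical.

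The promoter windows of these genes are shown for the 2 that held an antioxidant response element core and for the neighbours Aldh1a1 and Aldh1a7. RefSeq (GRCm38.p6) gave 10 promoter windows for 8 of the 10 genes, each from 250 bases before to 50 after a transcription start, and the 250 bases before the start are printed 5′ to 3′. The core was searched as TGACNNNGC on both strands. Counted from the start, with negative positions before it, the core began at -121 in Gsta3 and at -240 in Nfe2l2, and capitals mark it in the first pair of sequences. In the second pair, capitals mark the longest stretch that the windows of Aldh1a1 and Aldh1a7 share. Aldh1a1 had another window, at chr19:20492333-20492632, which is not printed and was not compared.
Gsta3, chr1:21240335-21240584, plus strand: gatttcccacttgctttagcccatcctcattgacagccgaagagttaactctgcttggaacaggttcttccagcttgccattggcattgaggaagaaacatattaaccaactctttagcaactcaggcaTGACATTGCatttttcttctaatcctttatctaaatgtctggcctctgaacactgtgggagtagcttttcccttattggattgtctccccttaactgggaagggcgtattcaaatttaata
Nfe2l2, chr2:75704664-75704913, minus strand: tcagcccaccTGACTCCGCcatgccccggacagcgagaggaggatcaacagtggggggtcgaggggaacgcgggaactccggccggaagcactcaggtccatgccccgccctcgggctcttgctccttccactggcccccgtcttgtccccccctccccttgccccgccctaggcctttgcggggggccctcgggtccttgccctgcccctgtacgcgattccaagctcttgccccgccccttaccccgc
Aldh1a1, chr19:20601718-20601967, plus strand: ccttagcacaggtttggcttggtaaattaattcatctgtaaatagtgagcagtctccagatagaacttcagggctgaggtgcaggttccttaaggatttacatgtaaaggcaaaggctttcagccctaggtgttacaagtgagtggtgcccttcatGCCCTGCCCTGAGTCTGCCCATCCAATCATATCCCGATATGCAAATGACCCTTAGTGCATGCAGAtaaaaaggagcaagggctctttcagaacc
Aldh1a7, chr19:20727557-20727806, minus strand: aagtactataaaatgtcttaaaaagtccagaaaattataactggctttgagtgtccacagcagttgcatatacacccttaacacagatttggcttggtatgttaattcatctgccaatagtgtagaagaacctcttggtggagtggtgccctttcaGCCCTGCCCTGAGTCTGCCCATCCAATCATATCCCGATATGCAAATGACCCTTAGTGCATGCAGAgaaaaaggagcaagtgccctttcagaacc

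The element core occurred in 12.39% of all 32851 promoter windows of this length, and a match is a description of the letters and not a bound site. TATAAA, the core of the TATA box, began at -30 from a start of Gstm1 and at -244 from that of Aldh1a7, and in 13.62% of all windows. The printed windows of Aldh1a1 and Aldh1a7 shared an unbroken stretch of 65 bases that began at -94 from each start. Over the 150 bases nearest the start, 100 before and 50 after, their windows were identical at 142 bases (94.7%), and over the whole windows at 221 of 285 aligned bases (77.5%).

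The genes lie at these positions of mm10, as the bulk table gives them, each span being a whole gene locus. Gstm1 (chr3:108012250-108017973) and Gstm2 (chr3:107981702-107986436) are neighbours of the mu class. Gsta3 (chr1:21240585-21265575) and Gsta4 (chr9:78191966-78209349) are of the alpha class, and Gsto1 (chr19:47854989-47864788) is of the omega class. Aldh1a1 (chr19:20601982-20643462) and Aldh1a7 (chr19:20692953-20727556) lie on the same chromosome. Prdx6 lies at chr1:161240112-161251210, Cbr2 at chr11:120729485-120732021 and Nfe2l2 at chr2:75675519-75704641. The coding sequences of Aldh1a1 and Aldh1a7 were identical at 1377 of 1503 bases (91.6%), those of Gstm1 and Gstm2 at 85.9%, and those of Gsta3 and Gsta4 at 66.2%. Of all 75-base windows of the transcript, the length of a bulk read, 14.81% in Gstm1 also occurred in a transcript of Gstm2-ps1, Gstm3 or Gm8834, 10.62% in Cbr2 in Gm11771, 3.13% in Gstm2 in Gm12499, and 2.19% in Aldh1a1 and 2.51% in Aldh1a7 in one another. How the authors' counting split such reads was not tested; the other 5 genes shared no window.

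On the wild-type chip 66 of 72 cells, and on the chip labelled knockout 61 of the 64 with a matched column, had at least 1000 genes at a TPM (a length-corrected abundance scaled to a fixed total per cell) of at least 1. The median cell had 3130.5 such genes on the wild-type chip and 3580 on the other, and ERCC spike-in RNAs took 13.2% and 6.28% of its TPM. Read counts are unknown from TPM and FPKM. Trp53 reached that TPM in 4 of the 66 wild-type and 16 of the 61 knockout-labelled cells, more often where the label says it is lost, so the latter are called cells labelled knockout throughout. A whole-gene TPM also counts RNA from outside a deleted part, and the sources used here do not give the deleted exons, so this count does not settle the label. In bulk, Trp53 had an FPKM of 20.2 ± 3.09 (SD, n = 3) in wild-type and 8.73 ± 1.21 (SD, n = 3) in knockout libraries, with an adjusted p of 0.144 in limma. Wild-type replicate 1 stood apart in bulk: the summed FPKM of the 6 club cell markers tested in bulk, of 8 listed, was 11918 there. Wild-type replicates 5 and 6 had 74202 and 70186, and the knockout libraries had 36004 to 59051. The size of the gap differed between these markers: Scgb3a1 had 1473 in replicate 1 against 18473 and 25279 in replicates 5 and 6, and Cldn10 had 344 against 660 and 761. In replicate 1 the 5 tested alveolar type 2 markers, of 8 listed, summed to 7366, against 3161 to 3945 in the other 5 libraries.

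Cells were put in 2 states by comparing the mean log2(TPM + 1) of 8 club cell markers with that of 8 alveolar type 2 markers, none of them a gene of this report. This gave 44 wild-type cells and 39 cells labelled knockout as club-dominant, and 22 of each as alveolar type 2-dominant. The states held mixed cells: Scgb1a1 exceeded Sftpc in TPM in 5 of the 22 wild-type and in 8 of the 22 labelled-knockout alveolar type 2-dominant cells, and 2 wild-type cells and 4 labelled knockout lay within 1 log2 unit of the division. Club-dominant cells were further split at 1000 TPM of Scgb3a1, a secretoglobin of a subset of airway secretory cells, into 18 high and 26 low wild-type cells and 30 high and 9 low cells labelled knockout. The lowest high cell had a Scgb3a1 log2(TPM + 1) of 10.02 (wild type) and 12.42 (labelled knockout), and the highest low cell 9.51 and 9.61. Each genotype is 1 chip and its table was normalized separately, so differences between cells carry no test, and SDs over cells are not errors between mice.

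Most of the 10 genes were higher in club-dominant cells. On the wild-type chip 9 of 10 had a mean log2(TPM + 1) at least 1 higher in club-dominant than in alveolar type 2-dominant cells, a size reached by 12.8% of all 4103 genes compared, and 0 of 10 were lower by 1, as 9.36% of genes were. On the chip labelled knockout it was 7 of 10, against 18.4% of 5204 genes. The median difference of the 10 genes was 3.57 (wild type) and 1.63 (labelled knockout), and that of all genes -0.12 and 0.11. These differences of mean log2(TPM + 1) are not fold changes of mean TPM, which rests on the cells of highest level. Without the wild-type cell of highest Gsto1, described below, the wild-type ratios of mean TPM ran from 1.28 (Nfe2l2) to 4.02 (Gstm2). All 10 genes were detected in at least 30% of the cells of either state on both chips. At a TPM of at least 1, a wild-type club-dominant cell held a median of 9.5 of the 10 and an alveolar type 2-dominant cell 6. On the chip labelled knockout the medians were 10 and 8. ERCC spike-ins took a median of 11.7% of TPM in club-dominant and 19.1% in alveolar type 2-dominant wild-type cells. In cells labelled knockout they took 5.63% and 8.82%. The median of detected genes was 3130.5 and 3134.5 in wild-type cells, and 3835 and 3256.5 in the others. The counts of 9 and 7 stayed within 1.5 times when TPM was rescaled without ERCC rows, and the part of detection was not tested further.

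**Figure D1:**
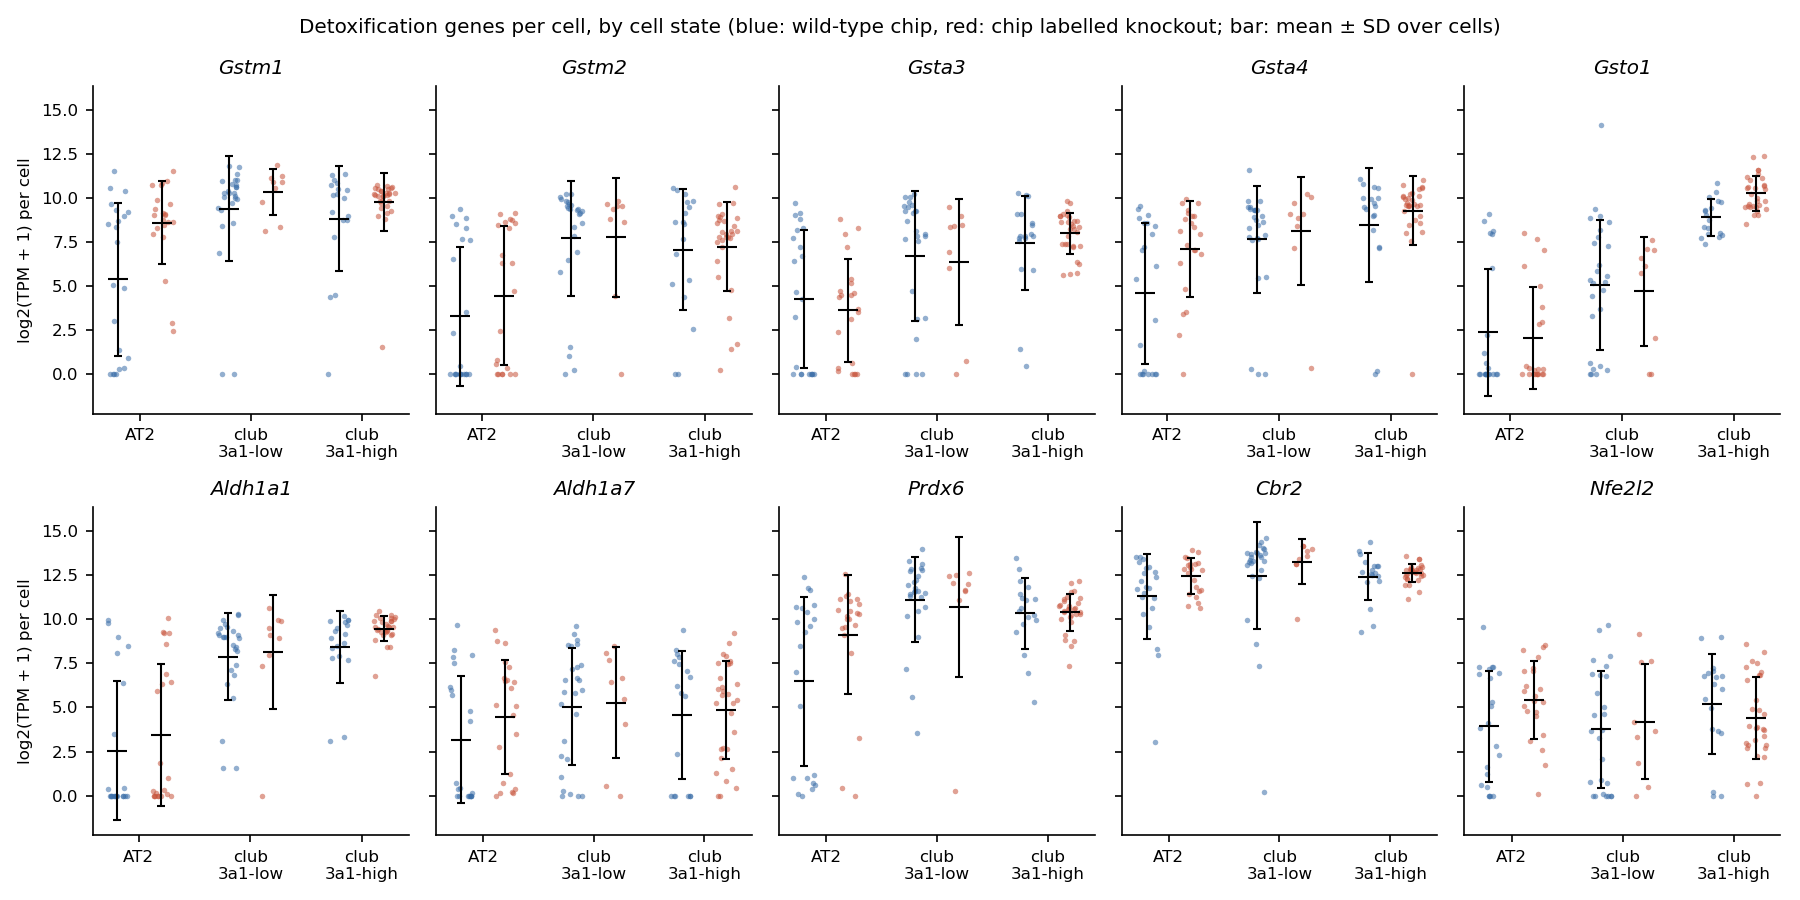
Level of each of the 10 genes in single cells, as log2(TPM + 1), in alveolar type 2-dominant cells (AT2) and in club-dominant cells with low or high Scgb3a1 (3a1-low, 3a1-high), with wild-type cells in blue, cells labelled knockout in red, and bars for the mean ± SD over cells. Aldh1a1 lay near 0 in most AT2 cells, and Gsto1 was above 7 in all 18 wild-type and all 30 labelled-knockout Scgb3a1-high cells.

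Among the glutathione transferases, Gstm1 and Gstm2, mu-class enzymes that act on epoxides and other electrophiles, were both higher in club-dominant cells. Gstm1 in wild-type cells had a lowest, median and highest TPM of 0, 1169 and 3506 in club-dominant and of 0, 107 and 2985 in alveolar type 2-dominant cells. On the chip labelled knockout these were 1.88, 1190 and 3757, and 4.47, 526 and 2899. The ranges overlapped on both chips, and Gstm1 was detected in 15 of 22 wild-type but in 22 of 22 labelled-knockout alveolar type 2-dominant cells. The difference of means was 3.77 log2 units (9.16 ± 2.95 against 5.38 ± 4.33, SD over cells) on the wild-type chip and 1.29 (9.88 ± 1.57 against 8.60 ± 2.34) on the other. For Gstm2 the difference was 4.16 and 2.90, with a median TPM in alveolar type 2-dominant cells of 0.200 and 51.1.

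Gsta3 and Gsta4 are alpha-class enzymes, and Gsta4 is known for coupling glutathione to aldehydes from oxidised lipids. Gsta3 was higher in club-dominant cells by 2.74 log2 units (wild type) and 4.00 (labelled knockout), and its median TPM was 237 and 321 there against 21.045 and 16.035 in alveolar type 2-dominant cells. Gsta4 was higher by 3.38 and 1.91, with median TPM of 515 and 761 against 55.6 and 260. Both genes had cells at or near 0 in both states.

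Gsto1, an omega-class enzyme that reduces dehydroascorbate and mixed disulfides, was higher in club-dominant cells on both chips. It was detected in 37 of 44 wild-type and 37 of 39 labelled-knockout club-dominant cells. In alveolar type 2-dominant cells it was detected in 8 of 22 on each chip (36.4%, exact 95% interval 17.2% to 59.3%, which covers counting error only). The lowest, median and highest TPM of Gsto1 were 0, 219 and 17758 in wild-type club-dominant cells and 0, 0 and 547 in alveolar type 2-dominant cells. On the chip labelled knockout they were 0, 772 and 5257, and 0, 0.240 and 252. The mean TPM was 8.83 times as high in club-dominant cells on the wild-type chip and 37.4 times on the other, and the difference of mean log2(TPM + 1) was 4.25 and 6.92. The wild-type ratio rests on 1 cell, described with Scgb3a1 below: without it the ratio of mean TPM was 3.98 (325 TPM over 43 club-dominant cells against 81.7), close to the 4.02 of Gstm2 over the same cells, and the difference of mean log2(TPM + 1) was 4.08. On the chip labelled knockout the next largest ratio of the 10 genes was 5.06, that of Gsta3.

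Aldh1a1, a cytosolic aldehyde dehydrogenase that also makes retinoic acid from retinaldehyde, was detected in all 44 wild-type club-dominant cells and in 38 of 39 labelled knockout. It was detected in 7 of 22 wild-type (31.8%, exact 95% interval 13.9% to 54.9%) and in 10 of 22 labelled-knockout (45.5%, 24.4% to 67.8%) alveolar type 2-dominant cells. Its lowest, median and highest TPM in club-dominant cells were 1.99, 499 and 1252 (wild type) and 0, 714 and 1609 (labelled knockout), and in alveolar type 2-dominant cells 0, 0 and 1004, and 0, 0.615 and 1074. The difference of means was 5.56 log2 units (8.11 ± 2.28 against 2.55 ± 3.93, SD over cells) on the wild-type chip and 5.73 (9.17 ± 1.70 against 3.44 ± 4.02) on the other. The difference for Scgb1a1, a gene used to set the states, was 5.76 and 2.85.

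Aldh1a7 encodes a close relative of Aldh1a1, and its proximal promoter is nearly the same as that of the Aldh1a1 window printed above. Its difference between states was 1.69 and 0.48, smaller than that of Aldh1a1 by more than 3 log2 units on each chip. Aldh1a7 was detected in 10 of 22 wild-type and 16 of 22 labelled-knockout alveolar type 2-dominant cells, more cells than Aldh1a1 on each chip, and in 33 of 44 and 33 of 39 club-dominant cells, fewer than Aldh1a1. Its median TPM in club-dominant cells was 59.8 and 51.2. Across club-dominant cells the Spearman correlation between Aldh1a1 and Aldh1a7 was 0.12 (44 wild-type cells) and 0.20 (39 labelled knockout), a description over cells that share a chip.

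Cbr2, the lung carbonyl reductase, was the most abundant of the 10 genes in every state by TPM, a unit that accounts for transcript length. Of 66 wild-type cells 65 had it, as did all 61 labelled knockout, including all 22 alveolar type 2-dominant cells of each chip. Its lowest, median and highest TPM in wild-type cells were 0.170, 9026 and 25061 in the club-dominant and 7.25, 3529 and 12040 in the alveolar type 2-dominant state. In cells labelled knockout they were 1051, 7151 and 18250, and 1602, 7193 and 15341. The difference of means was 1.15 log2 units on the wild-type chip and 0.33 on the chip labelled knockout, where the ranges nearly coincided.

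Prdx6, a peroxiredoxin that reduces phospholipid peroxides and also has phospholipase activity, had a median TPM of 2638 (wild type) and 1718 (labelled knockout) in club-dominant cells and of 486 and 1203 in alveolar type 2-dominant cells. Its difference of means was 4.31 log2 units (10.80 ± 2.26 against 6.49 ± 4.79, SD over cells) on the wild-type chip and 1.34 (10.47 ± 2.04 against 9.13 ± 3.39) on the other. In the wild-type alveolar type 2-dominant state, 5 of 22 cells had a TPM under 1.

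Nfe2l2, the regulator, did not follow the enzymes. Its mean was 0.42 log2 units higher in club-dominant cells on the wild-type chip and 1.06 lower on the chip labelled knockout, where 7.44% of genes were lower by at least 1. Its median TPM was 27.4 against 14.8 on the wild-type chip and 13.2 against 45.3 on the other. Keap1, which marks NRF2 for destruction, was detected in 18.2% to 22.7% of the cells of each state on each chip.

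**Figure D2:**
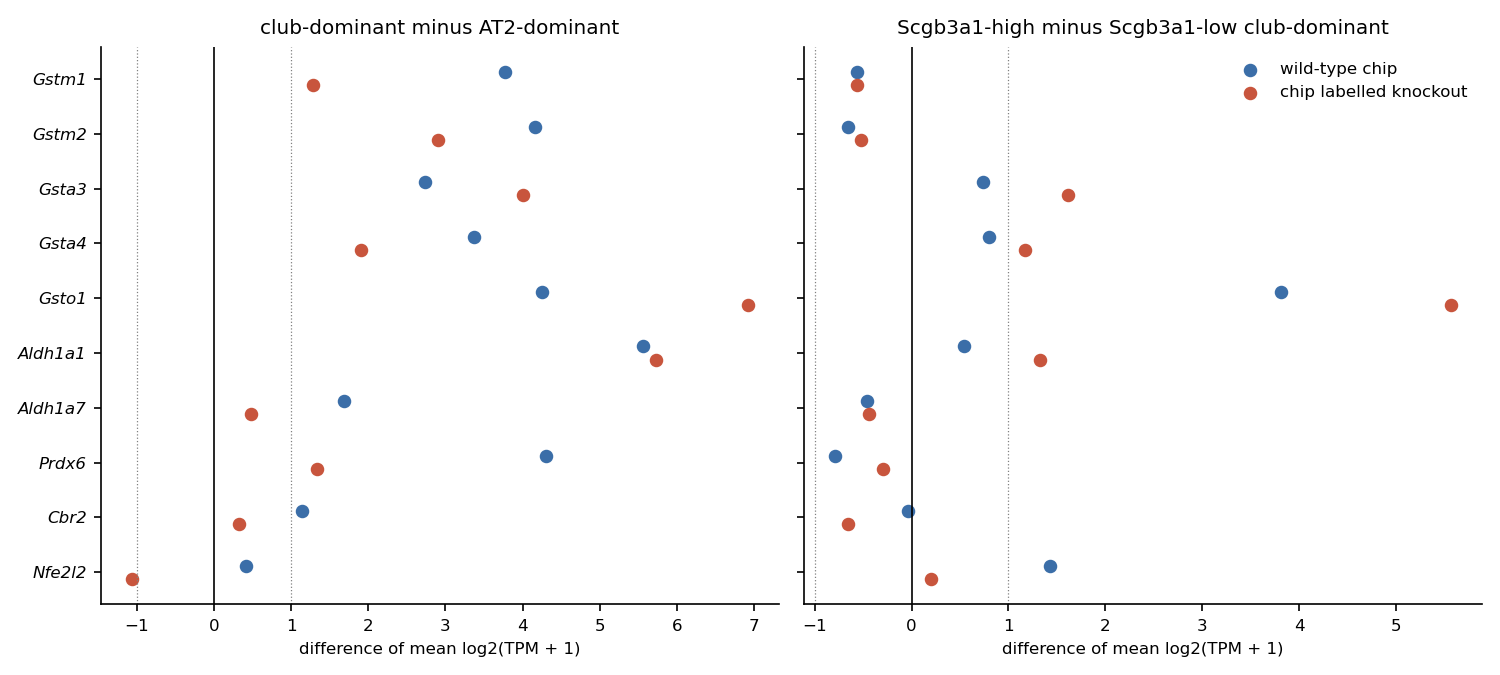
Difference of mean log2(TPM + 1) for each of the 10 genes, club-dominant minus alveolar type 2-dominant cells (left) and Scgb3a1-high minus Scgb3a1-low club-dominant cells (right), with the wild-type chip in blue, the chip labelled knockout in red and dotted lines at -1 and 1. Aldh1a1 lay at 5.56 and 5.73 on the left and Gsto1 at 3.82 and 5.57 on the right.

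Within the club-dominant state, Gsto1 was the gene that differed most with Scgb3a1. It was detected in all 18 wild-type and all 30 labelled-knockout Scgb3a1-high cells, with a lowest, median and highest TPM of 167, 478 and 1851, and of 360, 1089 and 5257. In Scgb3a1-low cells these were 0, 37.9 and 17758 (26 wild-type cells) and 0, 70.2 and 193 (9 labelled knockout). On the chip labelled knockout 0 of 9 low cells reached the lowest high cell, so the groups did not overlap, while 8 of 26 low wild-type cells exceeded the lowest high cell and 3 exceeded the median high cell. The difference of mean log2(TPM + 1) was 3.82 (wild type) and 5.57 (labelled knockout).

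A single wild-type Scgb3a1-low cell at 17758 TPM held 84.8% of the Gsto1 TPM summed over that group, and the next cell had 652. It had 727 TPM of Scgb3a1, close to the division at 1000, and 2378 detected genes. Its Cbr2 was 0.170 TPM, the lowest of all club-dominant cells. Without it the mean TPM of Gsto1 in wild-type Scgb3a1-low cells was 128 in place of 806, and the mean log2(TPM + 1) was 4.71 ± 3.27 (SD, 25 cells) in place of 5.07 ± 3.696 (26 cells). The high-minus-low difference was then 4.18. With this cell the mean TPM was higher in the low group (806 against 600 in the high group), while the mean log2 and the median were higher in the high group.

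Of the 10 genes, 2 were higher by at least 1 log2 unit in Scgb3a1-high cells on the wild-type chip, against 18.4% of 4219 genes, and 4 on the chip labelled knockout, against 17.9% of 5862 genes. None was lower by 1 on either chip, a size that 5.55% and 12.1% of genes reached. On the wild-type chip these were Gsto1 and Nfe2l2 (1.43), and on the other Gsto1, Gsta3 (1.61), Aldh1a1 (1.32) and Gsta4 (1.17). With a pseudocount of 10 only Gsto1 was left on either chip. With no minimum of detected genes, 4 were counted on the wild-type chip. Detected genes moved the same way: the median was 3327 in high and 2701.5 in low wild-type cells, and 3864.5 and 3192 in cells labelled knockout. Nfe2l2 had the closest relation to detected genes over club-dominant cells, with a Spearman correlation of 0.63 (wild type) and 0.37 (labelled knockout). The part of detection in its difference was not tested.

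Prdx6 and Cbr2 went the other way in mean TPM. Prdx6 averaged 4273 in low and 2482 in high wild-type cells, and 3867 and 1675 in cells labelled knockout. Cbr2 averaged 10867 and 7397, and 12183 and 6629. The high-minus-low differences of mean log2(TPM + 1) were -0.79 and -0.29 for Prdx6 and -0.04 and -0.66 for Cbr2. Without the cell of highest Gsto1 the wild-type differences were -1.01 for Prdx6 and -0.53 for Cbr2. Gstm1, Gstm2 and Aldh1a7 also had a lower mean TPM in high than in low cells on both chips, with log2 differences between -0.66 and -0.44. Scgb3a1, Bpifa1 and Reg3g together took a median of 3.47% (wild type) and 7.65% (labelled knockout) of a high cell's TPM and of 0.000727% and 0.000346% of a low cell's. The larger share of Scgb1a1 ran the opposite way, with medians of 34.3% and 35.1% in high cells and of 43.4% and 46.3% in low cells. TPM sum to a fixed total in each cell. With TPM rescaled without ERCC rows, Scgb1a1 and Sftpc, each of these log2 differences shifted by less than its SD over cells. Scgb3a1, Bpifa1 and Reg3g stayed in that total, and the part of these shares in the differences was not tested further.

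**Figure D3:**
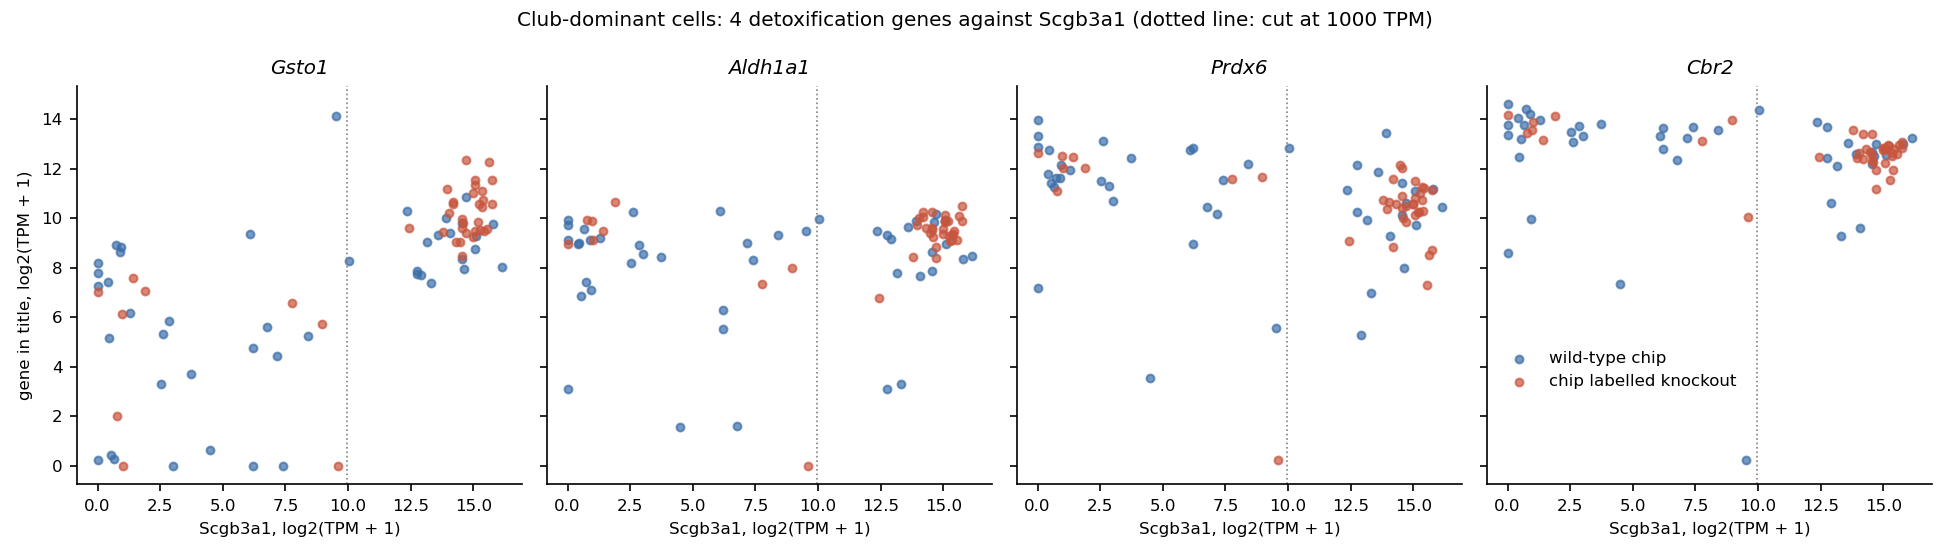
Gsto1, Aldh1a1, Prdx6 and Cbr2 against Scgb3a1 in each club-dominant cell, both as log2(TPM + 1), with 44 wild-type cells in blue, 39 cells labelled knockout in red and the division at 1000 TPM dotted. Cells right of the line all had Gsto1 of at least 167 TPM, and 1 wild-type cell just left of it had 17758.

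Some pairs of the genes varied together across club-dominant cells and others did not, given here as Spearman correlations over cells of 1 chip and without a test. Prdx6 and Cbr2 had 0.64 (44 wild-type cells) and 0.50 (39 labelled knockout), Gsta4 and Aldh1a1 0.50 and 0.56, and Gstm1 and Gstm2 0.53 and 0.44. Other pairs were near 0, negative or of opposite sign on the chips. Gsto1 had -0.04 and -0.43 with Prdx6 and -0.15 and -0.38 with Cbr2, and Gstm2 with Gsta3 had 0.42 and -0.03. Gsto1 and Scgb3a1 had 0.53 and 0.67. Prdx6 with Scgb3a1 had -0.44 on each chip.

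The genes of the most similar pattern over all 127 kept cells, by Pearson correlation of log2(TPM + 1) centred within chip among 3697 genes, differed between the 10. Aldh1a1 was nearest to Cyp2f2 (0.78), the club cell cytochrome P450, then Scgb1a1 (0.76) and Scgb3a2 (0.72). Gstm2 (0.71) and Prdx6 (0.67) were each nearest to Scgb1a1, Gstm1 to Gstm2 (0.67), Gsta3 to Aldh1a1 (0.72) and Gsta4 to Mgst1 (0.64), a microsomal glutathione transferase. Gsto1 was nearest to Cp (0.75), which encodes the ferroxidase ceruloplasmin, then to the trefoil peptide gene Tff2 (0.71) and the secreted protein gene Bpifb1 (0.71). Cbr2 (0.62) and Aldh1a7 (0.46) were each nearest to the carboxylesterase gene Ces1d, and Nfe2l2 to Rbm26 (0.43). The cells share 2 chips, their depth and the mix of states, so these values describe the patterns only.

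Between the chips, club-dominant cells labelled knockout had more Gsto1 than wild-type ones, by 2.34 log2 units (8.97 ± 2.90 against 6.63 ± 3.46, SD over cells). Aldh1a1 was higher by 1.06 and Gsta4 by 1.04, and the other 7 genes lay between -0.32 (Prdx6) and 0.73 (Gstm1). The count of 3 of 10 at 1 or more stands against 22.4% of 4713 genes, and the median of the 10 (0.47) was close to that of all genes (0.51). Scgb3a1-high cells made up 30 of 39 club-dominant cells labelled knockout and 18 of 44 wild-type ones. Within Scgb3a1-high cells Gsto1 was higher by 1.37 (10.26 ± 0.98 against 8.88 ± 1.02), and within Scgb3a1-low cells it was lower by 0.38. In high cells 2 of 10 genes reached 1 (background 20.3% of 5231 genes) and in low cells 0 of 10 (30.6% of 4961 genes). Gsto1 alone kept a difference of at least 1 in club-dominant cells when TPM was rescaled without ERCC rows (2.19), when cells needed 2000 detected genes (1.84), or with a pseudocount of 10 (1.98).

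In alveolar type 2-dominant cells, 7 of 10 genes were higher by at least 1 log2 unit on the chip labelled knockout, against 19.7% of 4494 genes. The median of the 10 was 1.22 and that of all genes 0.32. Gstm1 was higher by 3.21, Prdx6 by 2.65, Gsta4 by 2.50, Nfe2l2 by 1.48, Aldh1a7 by 1.28, Gstm2 by 1.17 and Cbr2 by 1.14. Aldh1a1 was higher by 0.89, while Gsto1 (-0.33) and Gsta3 (-0.65) were lower. In mean TPM, which rests on the cells of highest level, the ratio was smaller: Gstm1 averaged 775 against 440 and Prdx6 1441 against 1017. Of the 8 club cell markers, 6 were detected in at least 30% of the cells of either chip's state, and 3 of these were higher by at least 1 on the chip labelled knockout: Cyp2f2 by 4.20, Scgb1a1 by 3.04 and Scgb3a2 by 1.58. The others differed by 0.91 (Cldn10), 0.74 (Bpifa1), 0.50 (Reg3g), 0.12 (Muc5b) and -0.95 (Scgb3a1). The median share of TPM in Scgb1a1 was 9.12% in alveolar type 2-dominant cells labelled knockout and 0.470% in wild-type ones, with Sftpc at 20.4% and 23.3%. ERCC spike-ins took a median of 8.82% and 19.1% of TPM. The count of 7 stayed within 1.5 times when TPM was rescaled without ERCC rows, and when Scgb1a1 and Sftpc were also left out. The part of both shares in these differences was not tested further, and chip and genotype cannot be told apart. With a pseudocount of 10 the count was 4 of 10.

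Other genes of these pathways were taken from fixed lists and counted where detected in at least 30% of the cells of either group. In club-dominant against alveolar type 2-dominant cells, 6 of 11 measured aldehyde and carbonyl genes were higher by at least 1 on the wild-type chip and 6 of 13 on the chip labelled knockout, against 12.8% and 18.4% of all genes, and 0 were lower by 1. For glutathione transferases outside the 10 genes the counts were 2 of 8 and 4 of 10, for peroxide and superoxide removal 4 of 15 and 6 of 15, for glutathione synthesis and reduction 1 of 8 and 3 of 9, and for NRF2 partners and targets 4 of 12 and 6 of 13. On the wild-type chip the 1 of 8 is at the share of all genes and the 2 of 8 is about 1 gene above it. Lower by at least 1 in these lists were the glutathione peroxidase gene Gpx1 on the wild-type chip (-1.19, against 1.08 on the other), and catalase (Cat, -1.61) and the zeta-class transferase Gstz1 (-2.43) on the chip labelled knockout. The following genes of the lists were picked after their values were seen. Gpx2, a glutathione peroxidase of epithelia, was higher by 3.77 and 4.04, Ephx1, the microsomal epoxide hydrolase, by 3.92 and 2.51, and Mgst1 by 2.89 and 1.52. On the wild-type chip Cat was lower in club-dominant cells by 0.49.

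In Scgb3a1-high against low cells, 5 of 12 measured aldehyde and carbonyl genes were higher by at least 1 and 2 lower on the wild-type chip, and 6 of 14 and 3 on the other. Over all genes 18.4% were higher and 5.55% lower on the wild-type chip, and 17.9% and 12.1% on the other. The lower genes were Cbr1 (-1.37) and Cbr3 (-1.13) on the wild-type chip, which had 0.02 and 0.45 on the other. On the chip labelled knockout they were Aldh2 (-2.96), Dcxr (-1.22) and Aldh3b1 (-1.19), which had -0.23, -0.98 and -0.02 on the wild-type chip. Chosen after their values were seen, Aldh3a1, an aldehyde dehydrogenase, was higher by 4.64 and 5.96, Adh7, a retinol-oxidising alcohol dehydrogenase, by 2.62 and 5.05, and Akr1a1, an aldehyde reductase, by 1.58 and 3.11. Idh1, which makes cytosolic NADPH, was higher by 2.85 and 2.30. Adh7 was detected in 61.1% and 90.0% of Scgb3a1-high cells, in 3.85% and 11.1% of low cells and in 0 of the 22 alveolar type 2-dominant cells of each chip. Goblet cell markers, a list of 8, summed to a median TPM of 640 (wild type) and 1654 (labelled knockout) in Scgb3a1-high and of 0 in Scgb3a1-low cells. Immune and basal cell markers summed to a median of 0 in every state on both chips. The highest immune sum was 9939 TPM, in a cell among the 9 labelled-knockout Scgb3a1-low ones, against 186 over all wild-type cells.

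In bulk, none of the 10 genes passed limma's test between genotypes at an adjusted p of 0.05, a threshold that 0.00836% of the 11957 tested genes passed. At an unadjusted p under 0.05 the counts were 0 of 10 and 13.1% of all genes. The adjusted p ranged from 0.515 to 0.949, the genotypes overlapped in all 10 genes, and 19.3% of all genes did not overlap. All 10 genes passed the filter on low values. With 3 libraries each, an exact permutation test cannot give a p below 0.1. The log2 fold change was positive for 9 of 10 genes, against 51.5% of all genes, and its median was 0.23, against 0.00779 over all genes. In the same 9 genes wild-type replicate 1 was the lowest of the 6 libraries. Its FPKM summed over all genes was also the lowest, at 424751 against 485641 to 581094 in the others. The share of all genes that were lowest in this library was not counted.

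Gsto1 had an FPKM of 263, 1110 and 1033 in wild-type replicates 1, 5 and 6 and of 992, 1655 and 1316 in knockout replicates 7, 8 and 10. Wild-type replicate 1 was far below the rest, and the other wild-type libraries lay within the knockout range. The log2 fold change of Gsto1 was 0.95 (SE 0.56, adjusted p = 0.515 in limma) with replicate 1 and 0.27 without it. Aldh1a1 had 926, 2047 and 1677 in wild-type and 1649, 1691 and 2223 in knockout libraries, a fold change of 0.32 (SE 0.34). Prdx6 had 1422, 2107 and 2093 against 2373, 1922 and 2731 (0.33, SE 0.27). In each of these the low wild-type library was again replicate 1, and the remaining 5 libraries were interleaved.

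Cbr2, the most abundant of the 10 in bulk, had an FPKM of 16234, 26950 and 34254 in wild-type and of 31432, 27552 and 33252 in knockout libraries (log2 fold change 0.31, SE 0.43). Gstm1 had 845, 1326 and 1451 against 1379, 1418 and 1611 (0.32, SE 0.26). Gstm2, Gsta3, Gsta4 and Aldh1a7 had fold changes of 0.07 to 0.14, with FPKM between 178 and 662 in all libraries. Nfe2l2 ran level, with 99.1, 108.5 and 115.1 against 116.5, 104.2 and 91.8 (-0.05, SE 0.13). Nfe2l2 was the exception among the 10, with its lowest value in knockout replicate 10.

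Without wild-type replicate 1, 4 of the 10 fold changes were positive and 6 negative, from -0.25 to 0.27 with a median of -0.04. Again 0 of 10 passed at an adjusted or an unadjusted p of 0.05 in limma. Of the 11795 genes tested in this fit, 344 were called higher and 63 lower at the adjusted threshold. The share of all genes at the unadjusted threshold was not counted for it. All 6 tested club cell markers and all 7 tested goblet cell markers were lowest in replicate 1, and all 5 tested alveolar type 2 markers were highest there. Fewer cells of a type and less RNA per cell cannot be told apart in bulk libraries. The 9 tested ciliated cell markers summed to 512, 148 and 134 in wild-type and to 585, 785 and 445 in knockout libraries. The 8 tested immune markers summed to 76.9 to 111 in wild-type and 38.6 to 64.9 in knockout libraries, and the 3 tested endothelial markers to 99.7 to 129 and 73.3 to 111. The part of these cell types in the values of the 10 genes was not tested.

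**Figure D4:**
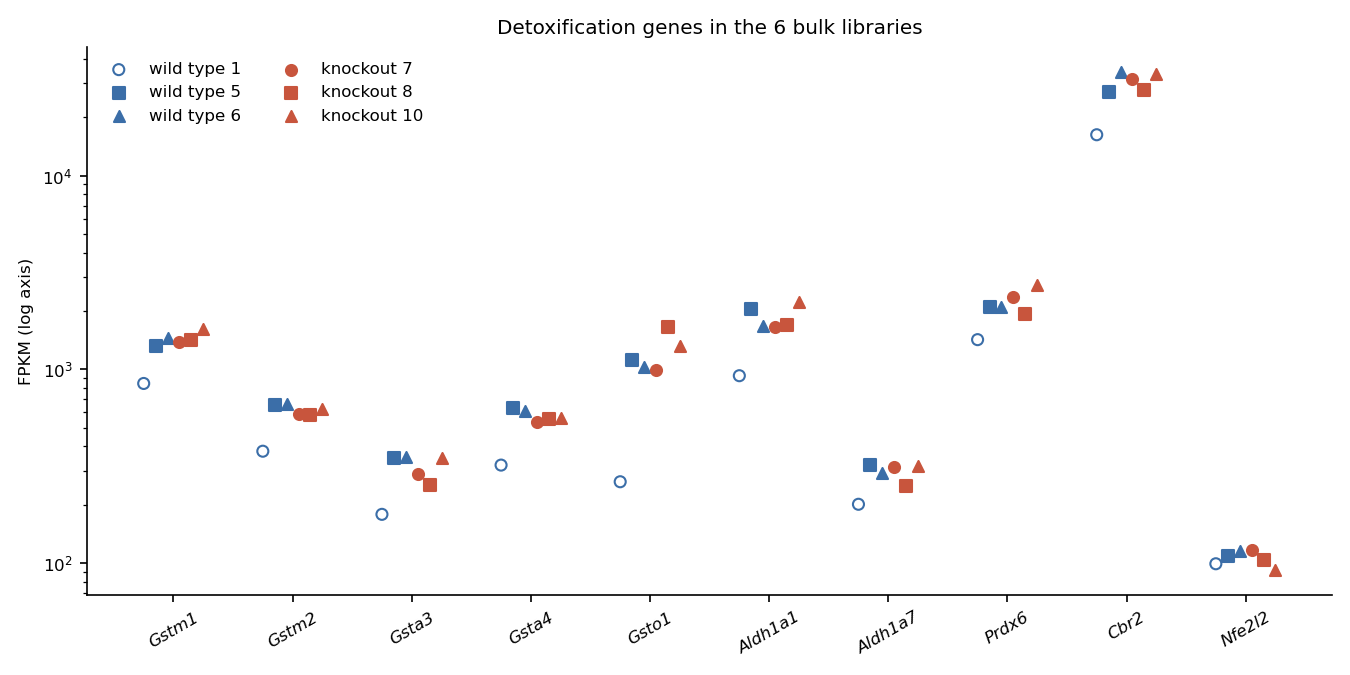
FPKM of the 10 genes in each of the 6 bulk libraries on a log axis, with wild-type replicates in blue (replicate 1 as open circles) and knockout replicates in red. The open circle is the lowest point for 9 genes, and the other 5 points of each gene are interleaved or close.

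The wider lists showed 0 calls in bulk. Of 17 tested glutathione transferases outside the 10 genes, 14 had a positive fold change, against 51.5% of all genes, and 13 of the 17 were lowest in wild-type replicate 1. The fold change was positive for 7 of 12 genes of glutathione synthesis and reduction, 10 of 20 of peroxide and superoxide removal, 11 of 22 of aldehyde and carbonyl removal and 13 of 22 NRF2 partners and targets. In the same order, 7 of 12, 10 of 20, 11 of 22 and 14 of 22 genes were lowest in wild-type replicate 1. Without overlap between genotypes were 1 of 17 transferases, 2 of 20 peroxide and superoxide genes and 1 of 22 NRF2 partners and targets. For glutathione synthesis and reduction it was 0 of 12, and for aldehyde and carbonyl removal 0 of 22. Over all genes 19.3% did not overlap. Gstp2, a pi-class transferase, had an FPKM of 9.0 ± 2.02 (SD, n = 3) in wild-type and 17.5 ± 1.77 (SD, n = 3) in knockout libraries without overlap, with an adjusted p of 0.223 in limma. Gpx7, a peroxidase of the endoplasmic reticulum, had 7.24 ± 0.66 and 5.11 ± 0.18 without overlap (adjusted p = 0.308 in limma). Nqo1, a quinone reductase and a standard NRF2 target, had 26.3 ± 13.4 and 45.1 ± 22.1 and overlapped. Among 6 tested p53 targets of redox metabolism, 4 did not overlap between genotypes, against 19.3% of all genes. Sesn2 and Sesn1, which encode sestrins, and Aldh4a1, a mitochondrial dehydrogenase of proline breakdown, had lower and Tigar, a regulator of glycolysis, had higher FPKM in every knockout library than in any wild-type one. Sesn2 went from 15.7 ± 1.63 to 11.4 ± 1.22 (adjusted p = 0.308 in limma), Sesn1 from 9.85 ± 1.97 to 6.46 ± 1.06 (0.318), Aldh4a1 from 41.4 ± 0.86 to 38.05 ± 2.05 (0.598) and Tigar from 2.96 ± 0.44 to 3.99 ± 0.16 (0.354).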

How the data were processed

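According to the submitters' processing notes, the authors ran TopHat, Bowtie2 and Cufflinks against mm10 for the deposited bulk FPKM values, and Bowtie 1.1.1 and RSEM 1.2.20 against GRCm38 for the deposited single-cell TPM values. How Cufflinks normalized its output was not given in these sources. The genes and lists were chosen with earlier results of these data known.

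Genotypes were compared in bulk on log2(FPKM + 1) by limma 3.58.1 (R 4.3.3, two-sided, trended and robust variance). P-values were adjusted by Benjamini-Hochberg over the 11957 genes that reached an FPKM of 1 in 3 or more libraries. Another 12 genes with a marked entry in place of a value were left out, none of them among the 10. The fit was tested on simulated data. A fold change on this scale understates that of low genes.

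Cells with a debris or valve remark, off-chip controls and cells under 1000 detected genes were left out, and 2 samples labelled knockout had no matched column and were not analysed here. Differences are of mean log2(TPM + 1) with ERCC rows in the total, for genes detected in at least 30% of either group's cells. Doublets were removed by inspection, per the labels' protocols, and no caller was run. Alternatives were other pseudocounts, filters, scalings, state rules and leaving out each library. Named genes are the 10, Trp53, up to 4 genes of each list with the smallest bulk p, and the 3 genes of highest correlation with each of the 10. Gpx1, Gpx2, Ephx1, Cat, Gstz1, Aldh3a1, Adh7, Akr1a1, Cbr1, Cbr3, Aldh2, Dcxr and Keap1 fall outside this rule and were chosen after their values were seen. Cell type markers are named where they bear on a result. Windows, motifs and identities were computed with Python 3.11.15 from RefSeq and GENCODE M21 sequences.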

Additional observations from a re-analysis of the deposited data

Results flagged for a closer look

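For 4 genes the difference between the chips had opposite signs in club-dominant and alveolar type 2-dominant cells, in the means over cells. These opposite directions were not tested, since each genotype is 1 chip. The club-dominant difference minus the alveolar type 2-dominant one was 2.67 log2 units for Gsto1, 1.26 for Gsta3, -1.26 for Gstm2 and -2.97 for Prdx6. For Nfe2l2 the difference between states had opposite signs on the chips, 0.42 on the wild-type chip and -1.06 on the chip labelled knockout, 1.47 apart, also not tested.

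The positive off-chip control of the chip labelled knockout, which entered no comparison, held all 10 genes: Cbr2 at 4744 TPM, Gsto1 at 952.7, Aldh1a1 at 949.8, Prdx6 at 857, Gstm1 at 627.3, Gsta4 at 378.3, Gstm2 at 319.9, Gsta3 at 208.2, Aldh1a7 at 184.4 and Nfe2l2 at 23.5. The negative control had 0 TPM for all 10. Wells left out for a debris or valve remark also held the genes at a TPM of at least 1: 10 of 10 in the wild-type well, and 9, 10 and 9 of 10 in the wells labelled knockout.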

How the results depend on the processing

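No paired analysis was possible because the wild-type and knockout bulk libraries share no replicate numbers, and each genotype is 1 chip. In bulk the count of genes past the threshold was 0 under all 11 alternatives, and 103 of 110 single-gene fold changes kept their direction. With each library left out in turn, 6 fold changes crossed 0: the log2 fold change ranged from -0.135 to 0.269 for Gstm2, -0.255 to 0.236 for Gsta3, -0.171 to 0.317 for Gsta4, -0.0124 to 0.559 for Aldh1a1, -0.0713 to 0.261 for Aldh1a7 and -0.133 to 0.0363 for Nfe2l2. The library was wild-type replicate 1 for the first 5 genes, and knockout replicate 10 for Nfe2l2 and, at -0.06, also for Gsta3. Over all genes the count of calls was 1 of 11957 with all libraries. It was 344 higher and 63 lower of 11795 without wild-type replicate 1, and 0 to 3 without any other library. Among cells, the count of genes at least 1 log2 unit higher on the chip labelled knockout in club-dominant cells was 3 and became 1 with a pseudocount of 10, with TPM rescaled without ERCC rows, with Scgb1a1 and Sftpc also left out of the scaling, or with at least 2000 detected genes. In alveolar type 2-dominant cells it was 7 and became 4 with a pseudocount of 10. For Scgb3a1-high against low cells it went from 2 to 1 (wild type) and from 4 to 1 (labelled knockout) with a pseudocount of 10, and from 2 to 4 (wild type) with no minimum of detected genes. The cause was not tested. The other 46 alternative counts stayed within 1.5 times. The alternatives for alveolar type 2-dominant cells between chips and for the Scgb3a1 comparison, and those that left out cells near the division of states or the cell of highest Gsto1, were chosen after seeing the data. With no read counts, the depth behind a TPM or FPKM is unknown, and a cell at 0 may hold the transcript below detection.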
